A study of Homo sapiens with 12 samples.

Results

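The 5 glypican genes GPC1, GPC2, GPC3, GPC4 and GPC6 were followed through the messenger RNA and the ribosome footprints of HEK293T cells that lacked translational repressors. The members were taken by gene symbol from count tables that list 27011 genes, of which 6 are glypicans, and GPC5 is the remaining one. The family was chosen by the level of GPC3 mRNA, already known to be high in these 4EHP-null cells, so its difference in any comparison that holds 4EHP-null libraries is given as a description with no test. HEK293T is a human embryonic kidney line that carries the SV40 large T antigen. The study compared 4EHP-null cells and GIGYF1/2-null cells with wild-type (WT) cells of that line and asked how 4EHP and GIGYF1/2 link translational repression to mRNA decay. 4EHP, encoded by EIF4E2, binds the mRNA cap without recruiting the translation machinery, and GIGYF1 and GIGYF2 are its scaffold partners. All cells were untreated and were plated in 15 cm dishes 24 h before harvest. Each of the 3 genotypes had 2 RNA-seq and 2 Ribo-seq libraries, 12 in all, and the labels do not say whether a genotype is 1 clone or several. They call the replicates biological and do not say that they were separate cultures, so the p-values measure only the spread between these samples.

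Glypicans are cell-surface proteoglycans held in the outer membrane leaflet by a glycosylphosphatidylinositol (GPI) anchor, with heparan sulfate chains attached near the membrane. Through the core protein and the chains they bind Wnt, hedgehog, FGF and BMP ligands and so raise or lower signalling, depending on the glypican and the cell. Their amount at the surface depends on core protein synthesis, on the enzymes that build and trim the chains, and on enzymes that cut the anchor.

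RNA-seq libraries held between 26143118 and 38175701 counts and Ribo-seq libraries between 6536493 and 10816080. Levels are in CPM, read counts relative to the TMM-scaled size of the library within an assay, and changes are log2 fold changes ± SE from edgeR's quasi-likelihood test with p-values adjusted over all genes tested (Benjamini-Hochberg, call threshold 0.05). EIF4E2 mRNA averaged 48.8 ± 3.02 CPM in 4EHP-null cells and 123 ± 0.0741 CPM in WT cells (SD, n = 2 each). GIGYF1 mRNA averaged 24.2 ± 2.55 CPM in GIGYF1/2-null cells and 41.0 ± 0.292 CPM in WT cells, while GIGYF2 mRNA averaged 89.3 ± 10.5 CPM in GIGYF1/2-null and 73.7 ± 10.7 CPM in WT cells, so a lower level was seen for GIGYF1 and not for GIGYF2. The summed level of 6 HEK293T genes (VIM, KRT8, KRT18, NEFM, NEFL and PAX2, all detected) was 707 to 829 CPM in 4EHP-null, 880 to 1126 in GIGYF1/2-null and 1000 to 1152 in WT libraries. Most of that sum was VIM (597, 529 and 739 CPM on average in those genotypes), and the genes did not move together. In 4EHP-null against WT cells NEFM averaged 47.7 against 193 CPM and NEFL 36.5 against 78.5. PAX2 averaged 2.78 against 3.19, while KRT8 averaged 25.9 against 13.1 and KRT18 57.5 against 48.7. The leukocyte gene PTPRC had no count in any RNA-seq library. The hepatocyte genes ALB, AFP and TTR, from a tissue in which GPC3 is a fetal and tumour marker, summed to at most 0.152 CPM in any library. In these bulk libraries fewer cells with an mRNA and less of it per cell cannot be told apart.

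All 5 members passed the filter on low counts in RNA-seq (15637 genes tested), in Ribo-seq (14722) and in the test of footprints relative to mRNA (13257). In mRNA, 1 of the 4 members other than GPC3 was called up in 4EHP-null against WT and 0 down, where 6.47% of all genes tested were up. This was GPC6. In GIGYF1/2-null against WT 2 of the 5 members, GPC3 and GPC6, were called down and 0 up, where 6.75% of all genes were down. The median change was 0.28 over the 4 genes in 4EHP-null and -0.31 over all 5 in GIGYF1/2-null, beside 0.00 and 0.01 for all genes. Both comparisons use the same WT libraries.

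**Figure D1:**
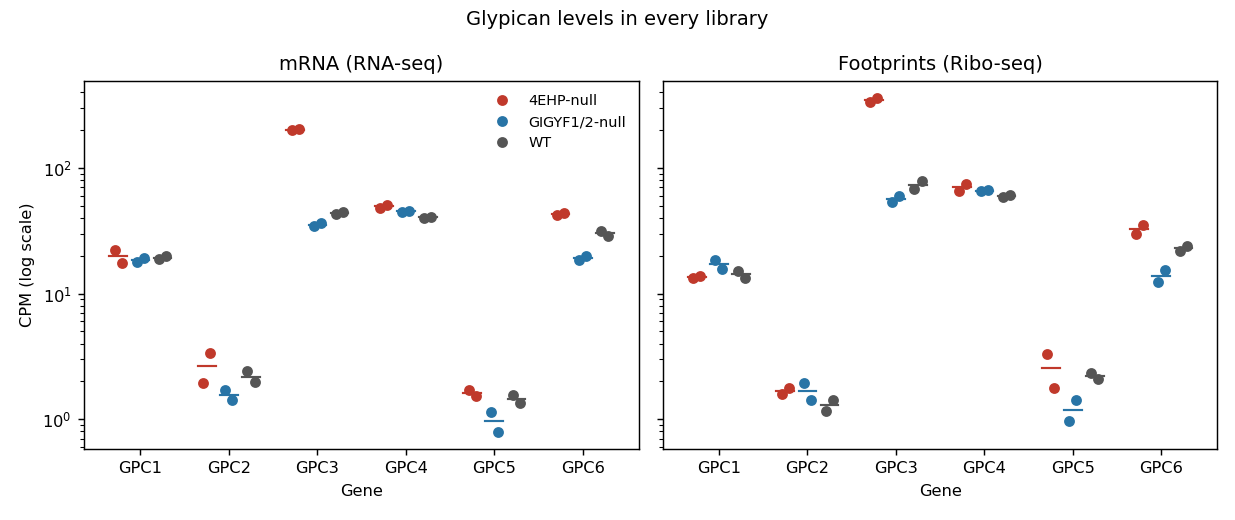
Level of each glypican gene in every library, in CPM on a log axis, for mRNA at left and footprints at right, by genotype. Points are single libraries and bars their mean. GPC3 lay at 200.3 and 203 CPM in 4EHP-null mRNA, above every other glypican value in the mRNA panel.

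GPC3 encodes the glypican whose loss causes Simpson-Golabi-Behmel overgrowth syndrome and which, in mouse, binds hedgehog ligands in competition with their receptor Patched. Its mRNA stood at 200.3 and 203 CPM in 4EHP-null libraries, at 34.7 and 36.3 CPM in GIGYF1/2-null libraries and at 43.3 and 44.6 CPM in WT libraries. The 3 genotypes did not overlap, with 4EHP-null libraries far above and GIGYF1/2-null libraries just below the WT pair. With 2 libraries a genotype, values often separate without a true difference, so lack of overlap is only a description here and below. The fitted change in 4EHP-null against WT was 2.20 ± 0.08, or 4.58-fold with a 95% interval of 2.02 to 2.37 on the log2 scale. A change of at least that size was seen in 159 of the 15637 genes. The family was chosen by this level, so neither the interval nor the rank is a test. Its footprints stood at 337 and 363 CPM in 4EHP-null libraries, at 53.9 and 59.98 CPM in GIGYF1/2-null libraries and at 68.2 and 79.5 CPM in WT libraries. The footprints gave the same order of genotypes, again without overlap. Their change in 4EHP-null against WT was 2.24 ± 0.14, or 4.73-fold, and 82 of 14722 genes changed by at least that much. Footprints relative to mRNA differed by 0.04 ± 0.14 in 4EHP-null against WT, with a 95% interval of -0.26 to 0.35.

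In GIGYF1/2-null cells GPC3 mRNA lay on the other side of WT. It was lower by a small amount, with a change of -0.31 ± 0.08 (edgeR adjusted p = 0.0244, 95% interval -0.48 to -0.14, 0.807-fold). Leaving out WT replicate 1 ended that call (adjusted p = 0.0941), as did leaving out the second WT library (0.138) or the first GIGYF1/2-null library (0.0630), and fitting these 2 genotypes alone (0.0533). In the authors' deposited table the same change was -0.30 with an adjusted p of 0.0128. Footprints changed by -0.38 ± 0.14, which did not pass (edgeR adjusted p = 0.186). Neither GIGYF1/2-null library reached the WT range. Between the knockouts, GIGYF1/2-null against 4EHP-null, the GPC3 values above corresponded to -2.51 ± 0.08 in mRNA and -2.62 ± 0.14 in footprints, given with no test.

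GPC6 encodes a glypican required for growth of the long bones, mutated in autosomal-recessive omodysplasia, and its mRNA differed from WT in opposite directions in the knockouts. It stood at 41.9 and 43.8 CPM in 4EHP-null libraries, at 18.4 and 19.8 CPM in GIGYF1/2-null libraries and at 31.8 and 28.5 CPM in WT libraries. No genotype overlapped another, and WT lay between the knockouts. The mRNA rose by 0.51 ± 0.11 in 4EHP-null against WT (edgeR adjusted p = 0.00846) and fell by 0.66 ± 0.11 in GIGYF1/2-null against WT (edgeR adjusted p = 0.00203). The rise was no longer called without WT replicate 2 (0.43, edgeR adjusted p = 0.0863), and the fall was called with any 1 library left out. GIGYF1/2-null against 4EHP-null, a direct test of the knockouts against each other, gave -1.16 ± 0.11 (edgeR adjusted p = 1.55e-05). In that comparison GPC6 was called down among the 4 members other than GPC3, and 0 were up, where 13% of all genes were down.

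GPC6 footprints stood at 29.6 and 35.3 CPM in 4EHP-null libraries, at 12.4 and 15.3 CPM in GIGYF1/2-null libraries and at 21.9 and 23.8 CPM in WT libraries. The order matched that of the mRNA, again without overlap. GIGYF1/2-null against 4EHP-null was called, at -1.22 ± 0.17 (edgeR adjusted p = 0.00135), and stayed called under every alternative run. Against WT the change of 0.50 ± 0.16 in 4EHP-null (edgeR adjusted p = 0.123) and that of -0.72 ± 0.17 in GIGYF1/2-null (edgeR adjusted p = 0.0511) did not pass. GIGYF1/2-null against WT passed with RLE scaling (edgeR adjusted p = 0.0491) and with no filter on low counts (0.00251). Both changes against WT passed with the replicate number as a block, with values given below, although the labels tie no number to a batch. In the authors' deposited tables both GPC6 footprint changes passed, at 0.56 (adjusted p = 0.0263) and -0.68 (adjusted p = 0.00589).

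**Figure D2:**
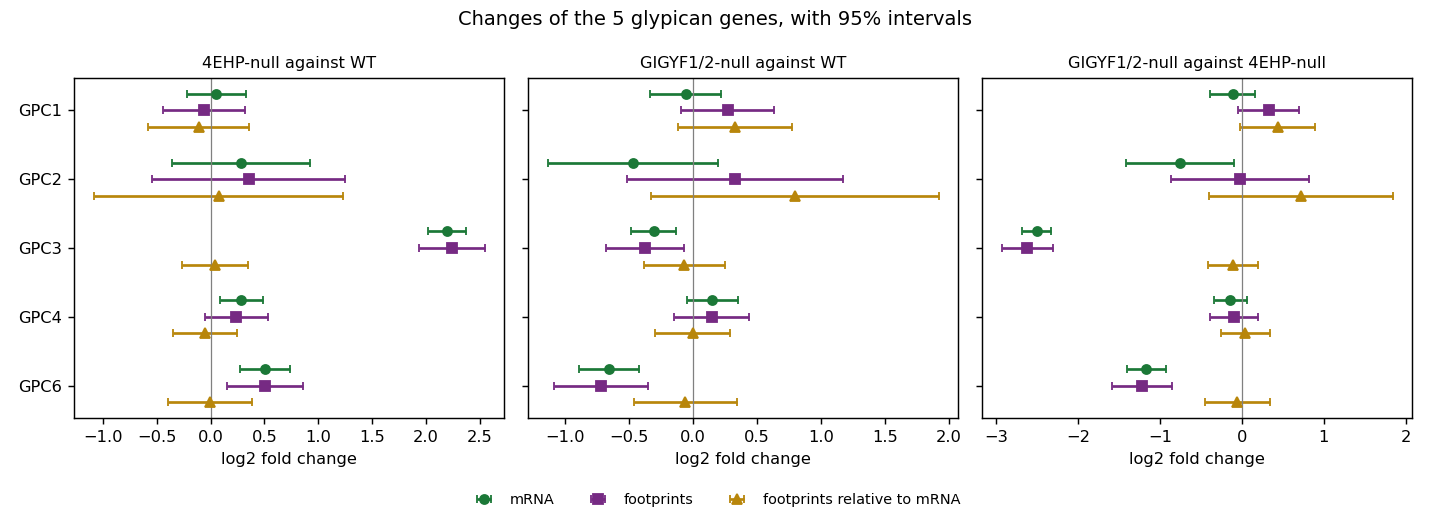
Log2 fold change of the 5 glypican genes in mRNA, in footprints and in footprints relative to mRNA, with 95% intervals from edgeR, for each knockout against WT and for GIGYF1/2-null against 4EHP-null. Intervals of GPC3 in comparisons with 4EHP-null libraries take no account of how the family was chosen. The mRNA and footprint intervals of GPC6 lie above 0 in 4EHP-null and below 0 in GIGYF1/2-null against WT, and every interval of footprints relative to mRNA holds 0.

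In footprints, edgeR called 0 of the 4 members other than GPC3 in 4EHP-null against WT, where 3.04% of all genes were called (1.58% up), with 1 at an unadjusted p under 0.05 and 0 by DESeq2 or limma-voom. In GIGYF1/2-null against 4EHP-null 1 of these 4 (GPC6) was called down, where 6.8% were down. In GIGYF1/2-null against WT edgeR called 0 of 5, where 2.09% of all genes were called in either direction, with 2 at an unadjusted p under 0.05 and 0 by DESeq2 or limma-voom. For footprints relative to mRNA edgeR called 0 of 5 in GIGYF1/2-null against WT and 0 of the 4 other than GPC3 in each comparison with 4EHP-null libraries, with 0 at an unadjusted p under 0.05 and 0 by DESeq2 or limma-voom, where 0.0905%, 0.0453% and 0.181% of all genes were called in 4EHP-null against WT, GIGYF1/2-null against WT and GIGYF1/2-null against 4EHP-null. For GPC6 the difference was 0.00 ± 0.18 in 4EHP-null (95% interval -0.39 to 0.38) and -0.06 ± 0.19 in GIGYF1/2-null (-0.46 to 0.34) against WT.

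GPC4, of the same branch of the family as GPC1, GPC2 and GPC6 and, in mouse, released by astrocytes to promote excitatory synapses, lies next to GPC3 on chromosome X. Its mRNA stood at 48.5 and 50.8 CPM in 4EHP-null libraries, at 44.9 and 45.3 CPM in GIGYF1/2-null libraries and at 40.3 and 41.0 CPM in WT libraries. Both knockouts lay above WT with no overlap. The change in 4EHP-null was 0.29 ± 0.09 (edgeR adjusted p = 0.0573, 95% interval 0.09 to 0.49) and that in GIGYF1/2-null 0.15 ± 0.09 (edgeR adjusted p = 0.346), and neither passed. In the authors' deposited table the 4EHP-null change was 0.28 and did pass, with an adjusted p of 0.0434. GPC4 footprints stood at 66.1 and 75.1 CPM in 4EHP-null, 65.0 and 67.2 CPM in GIGYF1/2-null and 58.4 and 61.2 CPM in WT libraries. They showed the same absence of overlap with WT, while the knockouts overlapped each other, and the changes against WT of 0.24 ± 0.13 (edgeR adjusted p = 0.361) and 0.14 ± 0.13 (0.628) did not pass.

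GPC6 and GPC4 are close relatives. GPC6 mRNA passed the test in both knockouts and GPC4 mRNA in neither, but the genes were not tested against each other. GPC4 missed the threshold narrowly in 4EHP-null (edgeR adjusted p = 0.0573) and passed in the authors' deposited table. The GPC6 fall in GIGYF1/2-null cells stood beside a chromosome 13 median of -0.53. The promoter windows of both genes are shown as a description, and their relation to these changes was not tested. Each is 300 bases long in RefSeq's GRCh38.p14 table, from 250 bases before the start of the gene to 50 after it. Capitals mark a GC box (GGGCGG, or CCGCCC on the other strand), a CCAAT box (CCAAT or ATTGG) or a TATA box (TATAAA or TTTATA), searched on both strands, with each match counted where matches of a motif share bases. The window of GPC6 is chr13:93226557-93226856 on the plus strand and that of GPC4 is chrX:133415440-133415739 on the minus strand.
GPC6: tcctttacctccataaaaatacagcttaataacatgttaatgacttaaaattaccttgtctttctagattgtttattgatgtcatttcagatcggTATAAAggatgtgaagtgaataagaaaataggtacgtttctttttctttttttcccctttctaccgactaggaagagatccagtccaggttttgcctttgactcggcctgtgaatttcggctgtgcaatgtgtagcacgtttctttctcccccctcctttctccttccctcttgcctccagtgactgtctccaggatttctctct
GPC4: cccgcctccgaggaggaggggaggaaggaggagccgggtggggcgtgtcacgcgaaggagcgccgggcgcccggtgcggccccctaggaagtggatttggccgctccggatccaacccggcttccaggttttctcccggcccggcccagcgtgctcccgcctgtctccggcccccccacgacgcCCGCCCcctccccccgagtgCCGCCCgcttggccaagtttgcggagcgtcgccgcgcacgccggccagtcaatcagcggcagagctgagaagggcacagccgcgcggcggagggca
The GPC6 window held 1 TATA box and 0 GC boxes, with 40% G and C bases, and the GPC4 window held 2 GC boxes and 0 TATA boxes, with 74.7%. Over all 35116 promoter windows in the table the median was 58.7% G and C, 45.0% held a GC box, 34.6% a CCAAT box and 11.5% a TATA box. The window of GPC1 held 4 GC boxes (3 where matches may not share bases), and that of GPC2 held 3 GC boxes and 2 CCAAT boxes. These matches describe the letters of the windows only.

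GPC1, a widely expressed glypican and co-receptor for FGF2, showed no called change. Its mRNA stood at 22.4 and 17.5 CPM in 4EHP-null libraries, at 17.8 and 19.3 CPM in GIGYF1/2-null libraries and at 18.8 and 19.8 CPM in WT libraries, and the genotypes overlapped. Against WT it changed by 0.05 ± 0.13 in 4EHP-null (edgeR adjusted p = 0.831, 95% interval -0.22 to 0.33) and by -0.06 ± 0.13 in GIGYF1/2-null (edgeR adjusted p = 0.833, 95% interval -0.33 to 0.22). Footprints stood at 13.4 and 13.8 CPM in 4EHP-null, at 18.6 and 15.7 CPM in GIGYF1/2-null and at 15.2 and 13.2 CPM in WT libraries. The GIGYF1/2-null libraries were the highest, without overlap with either other genotype, but the change against WT of 0.27 ± 0.17 did not pass (edgeR adjusted p = 0.431). Relative to mRNA, GPC1 footprints differed by 0.33 ± 0.21 in GIGYF1/2-null against WT, with a 95% interval of -0.12 to 0.78.

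GPC2, a glypican of the developing nervous system and of neuroblastoma, was near the lower end of what these libraries can measure. It had 64 and 89 mRNA counts in 4EHP-null libraries, 54 and 49 in GIGYF1/2-null libraries and 71 and 73 in WT libraries, which is 1.96 and 3.39 CPM in 4EHP-null, 1.71 and 1.43 CPM in GIGYF1/2-null and 2.41 and 1.96 CPM in WT libraries. The 4EHP-null replicates spanned both WT values. No comparison was called, and the 95% interval of the mRNA change ran from -0.36 to 0.92 in 4EHP-null and from -1.14 to 0.19 in GIGYF1/2-null against WT. GIGYF1/2-null against 4EHP-null gave -0.75 ± 0.30 in mRNA (edgeR adjusted p = 0.0916), which passed without 4EHP-null replicate 1 (-1.12, adjusted p = 0.0278) and with no filter on low counts (0.0247). Footprint counts were 10 and 13 in 4EHP-null, 16 and 16 in GIGYF1/2-null and 8 and 15 in WT libraries, too few to detect any but a large difference. GPC5, the glypican next to GPC6, had 1.71 and 1.52 CPM of mRNA in 4EHP-null, 1.14 and 0.789 CPM in GIGYF1/2-null and 1.56 and 1.34 CPM in WT libraries and was called in no comparison.

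Levels of different glypicans were compared per length, as CPM per kilobase of the gene length in the deposited tables. In WT mRNA the order was GPC3 at 18.4 ± 0.395, GPC4 at 10.9 ± 0.129, GPC1 at 5.23 ± 0.183, GPC6 at 4.24 ± 0.327 and GPC2 at 0.843 ± 0.121 CPM per kilobase (SD, n = 2), and no neighbouring pair in that order overlapped within its SD. In 4EHP-null mRNA GPC6 (6.03 ± 0.190) and GPC1 (5.42 ± 0.941) differed by less than the SD of GPC1. In GIGYF1/2-null mRNA GPC3 (14.9 ± 0.473) was followed by GPC4 (12.1 ± 0.0769), and GPC6 was at 2.69 ± 0.140. GPC3 in 4EHP-null mRNA reached 84.5 ± 0.751 CPM per kilobase, above 94.3% of the genes tested, against 73.8% in WT.

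Summed over the 6 glypicans, the mRNA level was 111 ± 0.794 CPM per kilobase in 4EHP-null, 35.7 ± 0.830 in GIGYF1/2-null and 40.2 ± 0.207 in WT cells (SD, n = 2 each). GPC3 made up 76.2% ± 0.131 of that sum in 4EHP-null, 41.7% ± 0.354 in GIGYF1/2-null and 45.8% ± 0.746 in WT cells. GPC6 made up 5.44% ± 0.132 in 4EHP-null, 7.54% ± 0.216 in GIGYF1/2-null and 10.6% ± 0.869 in WT cells, so its share was lowest in 4EHP-null cells although its own level was highest there. For footprints the sum was 175 ± 9.56 CPM per kilobase in 4EHP-null, 49.3 ± 1.95 in GIGYF1/2-null and 55.4 ± 3.70 in WT cells, with GPC3 at 83.6% ± 0.261 of it in 4EHP-null, 48.3% ± 1.77 in GIGYF1/2-null and 55.8% ± 2.28 in WT cells. GPC3 supplied the largest share in every genotype and assay on this measure, which divides footprints too by the whole gene length. By CPM alone, GPC4 footprints (66.1 ± 1.57) stood above those of GPC3 (56.9 ± 4.33) in GIGYF1/2-null cells.

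**Figure D3:**
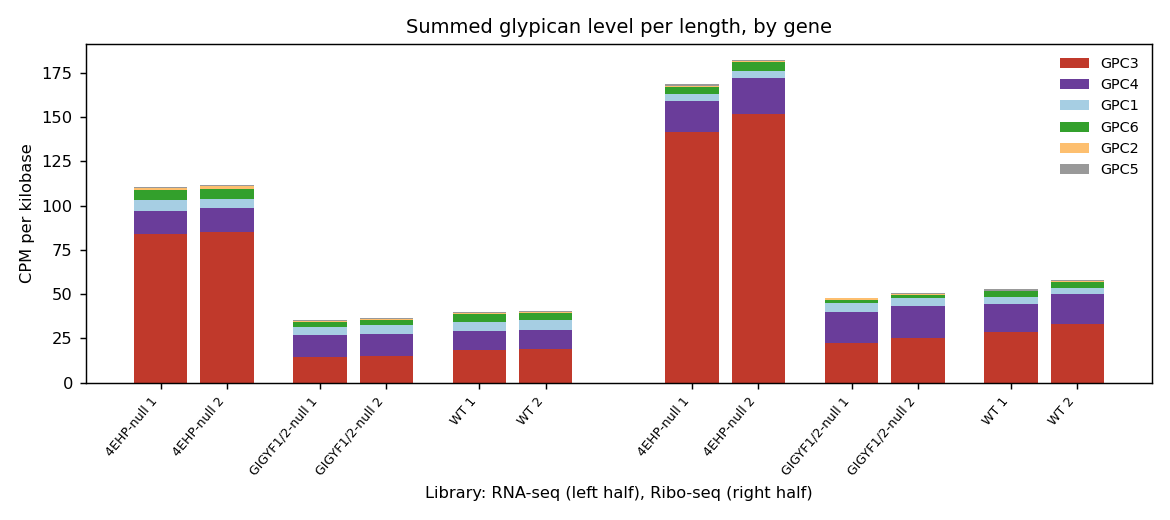
Summed level of the 6 glypican genes per length in each library, in CPM per kilobase, split by gene, for RNA-seq in the left group of bars and Ribo-seq in the right. The 4EHP-null bars stand near 111 CPM per kilobase in mRNA and 175 in footprints, with GPC3 as their largest segment.

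The ratio of footprint CPM to mRNA CPM was high for GPC3, GPC4 and GPC5. This ratio takes no account of the coding share of each mRNA, so it does not rank the genes by translation. For GPC3 it was 1.74 in 4EHP-null, 1.61 in GIGYF1/2-null and 1.68 in WT cells, and for GPC4 it was 1.42 in 4EHP-null, 1.47 in GIGYF1/2-null and 1.47 in WT cells. These 2 genes lay above 84.2% or more of 13257 genes in every genotype, where the median gene stood at 0.697 in 4EHP-null, 0.711 in GIGYF1/2-null and 0.715 in WT cells. The ratio of GPC6 was near that median, at 0.758 in 4EHP-null, 0.725 in GIGYF1/2-null and 0.758 in WT cells, and that of GPC1 was 0.679, 0.925 and 0.738 in those genotypes. GPC5, on chromosome 13, stood at 1.57 in 4EHP-null, 1.24 in GIGYF1/2-null and 1.52 in WT cells, and GPC2 at 0.626, 1.07 and 0.590 in those genotypes, both from few counts.

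Neighbouring genes were read in the order of RefSeq's GRCh38.p14 table, with the 10 nearest tested genes on either side of a member. Of the 20 neighbours of GPC3, 2 were called up and 3 down in 4EHP-null mRNA, where 13.1% of all genes were called, with a median change of -0.11 beside 2.20 for GPC3. FIRRE, a long noncoding RNA, rose by 1.07 ± 0.19 (edgeR adjusted p = 0.00283), MBNL3, a splicing regulator, fell by 0.65 ± 0.10 (0.00118), and PLAC1, a placental gene, rose by 0.60 ± 0.16 (0.0292). FAM122B fell by 0.31 ± 0.07 (edgeR adjusted p = 0.0177). CCDC160, directly next to GPC3, was called down (edgeR adjusted p = 0.0495) on 0 and 2 mRNA counts in 4EHP-null and 9 and 15 in WT libraries, too few for a firm fold change. HS6ST2, which adds sulfate to heparan sulfate and lies beyond GPC4, changed by 0.02 ± 0.08 (edgeR adjusted p = 0.891).

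Many neighbours of GPC6 were lower in GIGYF1/2-null cells as well. Of 20, 1 was called up and 9 down in GIGYF1/2-null mRNA against WT, with a median of -0.34, where 6.75% of all genes were down. The 9 included NDFIP2, a ubiquitin ligase adaptor (-0.57 ± 0.09, edgeR adjusted p = 0.00135), and ABCC4, a drug efflux pump (-0.48 ± 0.08, 0.00268). Over the whole of chromosome 13, 3 genes were called up and 154 down of 289 tested, with a median of -0.53 beside the change of GPC6 of -0.66. Chromosome 13 footprints gave 0 up and 47 down of 241, with a median of -0.50. In 4EHP-null mRNA against WT the chromosome had 18 up and 11 down, with a median of 0.05 beside 0.51 for GPC6. GPC2 lies on chromosome 7, where 8 genes were up and 257 down of 735 in GIGYF1/2-null mRNA, with a median of -0.31, while 0 of its own 20 neighbours were up and 2 down. The part of the shift along the chromosome in the GPC6 and GPC2 values was not tested. The neighbours of GPC1 on chromosome 2 had 1 up and 1 down of 20 in GIGYF1/2-null mRNA and a median of -0.02.

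**Figure D4:**
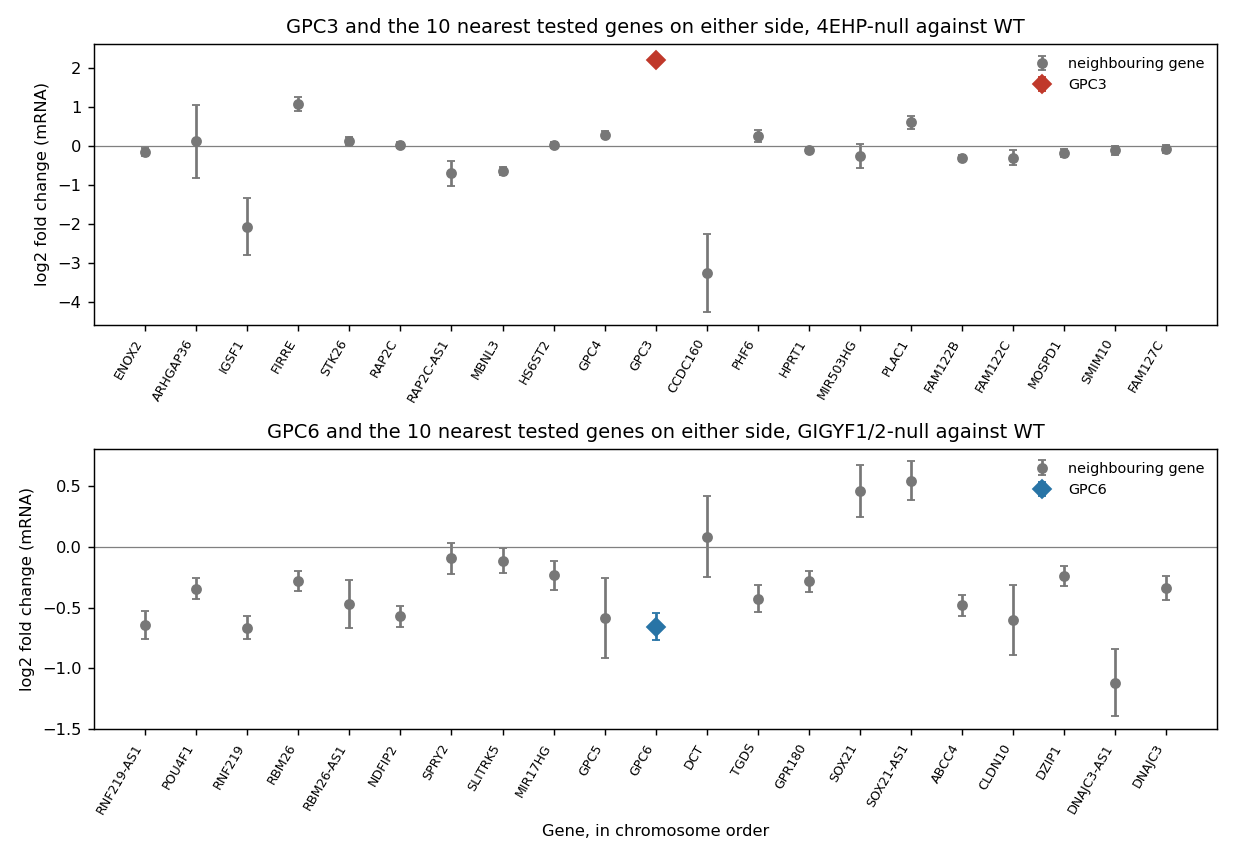
Log2 fold change of mRNA (± SE) for GPC3 in 4EHP-null against WT, above, and for GPC6 in GIGYF1/2-null against WT, below, each with the 10 nearest tested genes on either side in chromosome order. GPC3 at 2.20 stands above all 20 of its neighbours, while GPC6 at -0.66 lies among neighbours with a median of -0.34.

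The genes whose pattern over the 6 means (3 genotypes in 2 assays) was most like that of a member were found by Euclidean distance on log2 CPM among 11043 genes. For GPC3 the nearest were PGBD3, FAM21C and ERCC6, at distances of 0.819, 0.870 and 0.877, so no gene followed it closely. PGBD3 and ERCC6 overlap as genes and their reads may be shared. For GPC6 they were PRAME, TRIP6 and NBEA, at 0.143, 0.143 and 0.152, and for GPC4 GDAP1, DSC2 and APPL1, at 0.0208, 0.0394 and 0.0408. For GPC1 they were JADE2, ZSCAN26 and KLRG2 and for GPC2 FAM161B, PNPLA3 and RHOF. NBEA, the scaffold neurobeachin, also lies on chromosome 13 and changed in mRNA by 0.51 in 4EHP-null and -0.51 in GIGYF1/2-null against WT, beside 0.51 and -0.66 for GPC6.

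Other genes of glypican biology were read from 6 lists with 158 genes. In 4EHP-null mRNA against WT, 17 of 143 tested list genes rose and 13 fell, with a median of 0.01, where 13.1% of all genes were called in either direction. Among enzymes of heparan sulfate synthesis and modification, 1 of 28 rose and 3 fell. XYLT1, which starts the chain by adding xylose to the core protein, averaged 0.591 ± 0.0281 CPM in 4EHP-null and 2.27 ± 0.581 CPM in WT cells (-1.92 ± 0.32, edgeR adjusted p = 0.00222). NDST2, an N-deacetylase/N-sulfotransferase, averaged 23.4 ± 0.894 CPM in 4EHP-null and 35.9 ± 3.83 CPM in WT cells (-0.62 ± 0.12, edgeR adjusted p = 0.00610), a call lost without WT replicate 2 (0.0711). HS6ST3, a 6-O-sulfotransferase, rose to 10.5 ± 0.414 CPM in 4EHP-null, against 5.87 ± 0.512 CPM in WT cells (0.84 ± 0.15, edgeR adjusted p = 0.00318). Among genes of GPI anchor synthesis 1 of 29 rose and 1 fell. Of these 30 calls, leaving out 1 library changed the number to 14 (the first WT library), 16 (the second WT library), 17 (the first 4EHP-null library) or 18 (the second 4EHP-null library).

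Genes of chain removal and core protein processing had 4 up and 1 down of 20 in 4EHP-null mRNA, where 13.1% of all genes were called. PCSK6, a furin-like convertase, fell to 53.5 ± 2.27 CPM in 4EHP-null, against 76.6 ± 1.29 CPM in WT cells (-0.52 ± 0.08, edgeR adjusted p = 0.00170). NOTUM, an enzyme that removes a lipid from Wnt, was scarce. It had 24 and 19 counts in 4EHP-null, 48 and 40 in GIGYF1/2-null and 4 and 10 in WT libraries. It rose by 2.67 ± 0.46 in GIGYF1/2-null against WT (edgeR adjusted p = 0.00235; 3.27 without the second WT library), and its rise of 1.79 ± 0.49 in 4EHP-null (edgeR adjusted p = 0.0307) was lost on leaving out the first WT library (0.190), the second WT library (0.0785), the first 4EHP-null library (0.111) or the second 4EHP-null library (0.104).

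Other heparan sulfate proteoglycans had 4 up and 1 down of 13 in 4EHP-null mRNA, beside 13.1% of all genes called, and 2 up and 2 down in GIGYF1/2-null mRNA, beside 11.9%. SPOCK3, a testican of the extracellular matrix, averaged 9.64 ± 0.322 CPM in 4EHP-null, 3.67 ± 0.141 CPM in GIGYF1/2-null and 2.90 ± 0.269 CPM in WT cells (1.73 ± 0.17 in 4EHP-null against WT, edgeR adjusted p = 3.96e-05). SPOCK1, a related testican, went the other way, with 26 and 2 mRNA counts in 4EHP-null, 427 and 492 in GIGYF1/2-null and 165 and 162 in WT libraries. It fell by 3.39 ± 0.41 in 4EHP-null (edgeR adjusted p = 2.32e-04; -5.95 without the first and -2.63 without the second 4EHP-null library) and rose by 1.49 ± 0.27 in GIGYF1/2-null (edgeR adjusted p = 0.00295, 0.414 by DESeq2) against WT. Syndecan SDC2 rose by 0.42 ± 0.08 in 4EHP-null (edgeR adjusted p = 0.00604), a call lost without WT replicate 1 (0.0596) or 4EHP-null replicate 2 (0.0962). NRP1, a neuropilin that can carry heparan sulfate, fell to 13.4 ± 0.623 CPM in GIGYF1/2-null, against 21.7 ± 1.45 CPM in WT cells (-0.70 ± 0.12, edgeR adjusted p = 0.00216).

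Hedgehog ligands, receptors and targets, the pathway most often tied to GPC3, had 1 up and 1 down of 17 in 4EHP-null mRNA, where 13.1% of all genes were called, and 0 up and 4 down in GIGYF1/2-null mRNA against WT, where 11.9% were. HHIP, which sequesters hedgehog ligands, rose by 0.99 ± 0.19 in 4EHP-null mRNA (edgeR adjusted p = 0.00538), with counts of 190 and 161 in 4EHP-null and 86 and 114 in WT libraries. The pathway target GLI1 had 49 and 45 counts in 4EHP-null libraries and 37 and 45 in WT libraries and was not called there. In GIGYF1/2-null libraries it had 15 and 20 counts, a change against WT of -1.21 ± 0.35 that was called (edgeR adjusted p = 0.0434) and was lost with upper-quartile scaling (0.0512), with DESeq2 (0.0951) and with any 1 of the 6 libraries left out (0.0506 to 0.189). In GIGYF1/2-null cells GLI3, a transcription factor of the pathway, fell to 16.7 ± 1.45 CPM, against 26.9 ± 1.18 CPM in WT (-0.69 ± 0.11, edgeR adjusted p = 0.00163), and lies on chromosome 7. The receptor component SMO, also on chromosome 7, fell by 0.51 ± 0.10 (edgeR adjusted p = 0.00633), which was lost without WT replicate 1 (0.0577) or WT replicate 2 (0.0622).

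Other ligands and co-receptors named as glypican partners had 6 up and 6 down of 36 in 4EHP-null mRNA (13.1% of all genes called) and 6 up and 4 down in GIGYF1/2-null mRNA (11.9%). NPTX1, a neuronal pentraxin whose release in mouse is set off by GPC4, rose by 0.64 ± 0.08 in 4EHP-null (edgeR adjusted p = 2.33e-04) and by 1.11 ± 0.08 in GIGYF1/2-null (edgeR adjusted p = 5.74e-06) against WT. PTPRD, a receptor phosphatase of the family that binds heparan sulfate, had 67 and 47 counts in 4EHP-null, 30 and 20 in GIGYF1/2-null and 189 and 187 in WT libraries, a fall of 1.56 ± 0.25 in 4EHP-null (edgeR adjusted p = 0.00169) and of 2.90 ± 0.28 in GIGYF1/2-null (edgeR adjusted p = 5.39e-05). FGFR4 rose by 0.56 ± 0.10 in 4EHP-null (0.00388) and by 0.69 ± 0.10 in GIGYF1/2-null (9.95e-04, edgeR adjusted p). The Wnt ligand WNT3A fell by 2.17 ± 0.26 in 4EHP-null (edgeR adjusted p = 2.32e-04), with 37 and 19 counts in 4EHP-null and 112 and 174 in WT libraries.

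In GIGYF1/2-null mRNA against WT, 10 of 143 list genes rose and 11 fell, where 11.9% of all genes were called. Those 21 calls numbered 11 with either WT library left out and 13 with the second GIGYF1/2-null library left out. Heparan sulfate synthesis had 0 up and 1 down of 28, chain removal and processing 2 up and 0 down of 20. For GPI anchor synthesis edgeR called 0 of 29. GIGYF1/2-null against 4EHP-null gave 20 up and 21 down of 143, where 24.4% of all genes were called, with XYLT1 up by 2.35 ± 0.31 (edgeR adjusted p = 2.16e-04). Those 41 calls numbered 27 with either 4EHP-null library left out.

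In footprints, 3 list genes were up and 6 down of 131 in 4EHP-null, where 3.04% of all genes were called, and 2 up and 2 down in GIGYF1/2-null against WT, where 2.09% were. GIGYF1/2-null against 4EHP-null gave 11 up and 10 down, where 10.8% of all genes were called, and leaving out 1 library brought these 21 calls to 13 (the first WT library), 4 (the first 4EHP-null library), 11 (the second 4EHP-null library) or 10 (the second GIGYF1/2-null library). In 4EHP-null the 9 calls numbered 3 and 2 with the first and the second WT library left out, and 1 and 2 with the first and the second 4EHP-null library left out. In GIGYF1/2-null the 4 calls numbered 1 with either WT library left out and 2 with the second GIGYF1/2-null library left out. For footprints relative to mRNA edgeR called 0 list genes in each comparison, with 14 at an unadjusted p under 0.05 in 4EHP-null against WT, 5 in GIGYF1/2-null against WT and 9 in GIGYF1/2-null against 4EHP-null, and DESeq2 and limma-voom called 0.

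**Figure D5:**
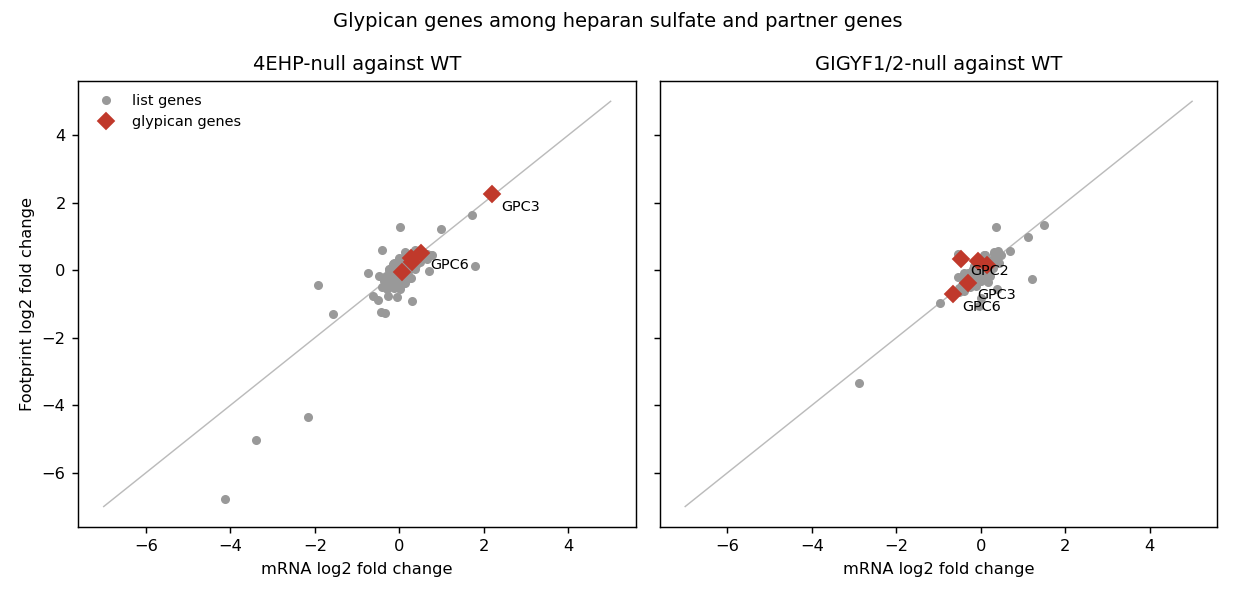
Footprint log2 fold change against mRNA log2 fold change for the list genes tested in both assays (grey) and the 5 glypican genes (red), in 4EHP-null at left and GIGYF1/2-null at right, against WT. The line marks equal change, and GPC3 in 4EHP-null lies on it at 2.20 and 2.24.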

How the data were processed

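The authors deposited raw read counts per gene symbol for RNA-seq and Ribo-seq, whole numbers with no normalization, with a gene length in bases per gene. Per the submitters' processing notes, Bowtie2, TopHat2, edgeR and the build hg19 were used, with no version given. How reads were assigned to genes (tool, annotation, strand) was not given in the sources used here. Overlapping genes are therefore uncertain, and the glypican antisense genes held at most 1 count over all libraries of an assay. Tables comparing either knockout with WT were deposited too, which per the file headers hold log2 fold changes, p-values and, for translation efficiency, a ratio of footprints to mRNA per genotype whose scaling is not stated.

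Counts were analysed with R 4.3.3 and edgeR 4.0.16. Genes were filtered with filterByExpr (minimum count 10), scaled by TMM within an assay and tested with the two-sided quasi-likelihood F-test over the 6 libraries of an assay, with 3 genotypes in 1 fit and p-values adjusted over all genes (Benjamini-Hochberg). Footprints relative to mRNA were tested as the interaction over 12 libraries. A total of 9 comparisons were fitted. Common dispersion corresponded to a biological coefficient of variation of 0.0862 (RNA-seq) and 0.119 (Ribo-seq). The code was tested on simulated data. No replicate pair agreed within counting noise (chi-square per degree of freedom 9.03 to 19.7). Alternatives tried were scaling by RLE or upper quartile, no filter, a stricter filter (1 CPM and 60 counts in all), DESeq2 1.42.0, limma-voom 3.58.1, a replicate block, only the 2 genotypes compared, and each library left out.

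Named genes were all members, GPC5, the targeted genes, called neighbours of members, the 3 nearest patterns (0.5 CPM added), and, in each list, the called genes of smallest adjusted p, at most 3 per direction. Gene order came from RefSeq's GRCh38.p14 table, to which 25573 symbols (94.7%) matched; its coordinates were not applied to the hg19 counts. The members and the lists were chosen with earlier results of these data known.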

Additional observations from a re-analysis of the deposited data

How the results depend on the processing

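No called change of a glypican turned direction under any alternative run. The counts of glypicans below are over all 5 and include GPC3. In comparisons with 4EHP-null libraries the call of GPC3 follows from how the family was chosen and is no result. The share of all genes called under each alternative is not given. The number of glypicans called in GIGYF1/2-null mRNA against WT, 2, was 1 with only the 2 genotypes compared, and that in GIGYF1/2-null footprints against WT, 0, was 1 with RLE scaling and 1 with no filter. With each library left out, the glypicans called ranged from 1 to 2, 1 to 2 and 2 to 3 in mRNA (4EHP-null against WT, GIGYF1/2-null against WT, GIGYF1/2-null against 4EHP-null), were 1, 0 and 2 in footprints, and 0 relative to mRNA. The list genes called ranged from 14 to 31, 11 to 19 and 27 to 36 in mRNA and from 1 to 12, 1 to 5 and 4 to 15 in footprints. List genes in footprints were 15 with no filter in 4EHP-null against WT (9 as reported), 10 with no filter and 2 with DESeq2 in GIGYF1/2-null against WT (4), and 9 with DESeq2 and 12 with only 2 genotypes in GIGYF1/2-null against 4EHP-null (21). The cause of these moves was not tested.

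The replicates share only a number, and same-numbered libraries deviated together weakly (correlations of 0.137 to 0.328 in RNA-seq and 0.159 to 0.369 in Ribo-seq). With that number as a replicate block, GPC6 was called in 4EHP-null footprints against WT (edgeR adjusted p = 0.0124). In GIGYF1/2-null footprints against WT GPC3 (0.0363) and GPC6 (5.92e-04) were called, and GPC4 mRNA was called in 4EHP-null (0.0142). The block called 34 list genes in GIGYF1/2-null mRNA and 21, 18 and 32 in footprints of 4EHP-null against WT, GIGYF1/2-null against WT and GIGYF1/2-null against 4EHP-null. The share of all genes called with the block is not given, so these counts are no result about the lists. Of the list genes that the naming rule gives, 11 of 22 in 4EHP-null mRNA and 7 of 16 in GIGYF1/2-null mRNA against WT were called under every alternative. With 2 libraries a group, the 95% intervals of the GPC1, GPC2 and GPC4 mRNA changes against WT hold changes of 0.31 in size, as was called for GPC3 in GIGYF1/2-null cells.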

Other observations

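GAS1, a GPI-anchored hedgehog co-receptor, stood at 31.1 CPM of mRNA in 4EHP-null and 42.2 CPM in WT cells, and at 3.94 and 6.95 CPM of footprints in 4EHP-null and 13.0 and 12.9 CPM in WT libraries. In GIGYF1/2-null libraries it had 28.3 and 35.5 CPM of mRNA and 8.25 and 8.58 CPM of footprints. Against WT, GAS1 changed in 4EHP-null by -0.44 in mRNA and by -1.23 in footprints. In GIGYF1/2-null it changed by -0.40 in mRNA and by -0.62 in footprints. The edgeR test of footprints relative to mRNA called 0 list genes, so GAS1 was not called in that test. That test does not cover the footprint change taken alone.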
